A study of Mus musculus with 6 samples.

Results

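DNA replication and S phase genes were examined in mouse acute myeloid leukaemia cells with and without Dnmt3b, which encodes an enzyme of de novo DNA methylation. The group was a list of 46 gene symbols that covers origin licensing, helicase activation, the polymerases, the sliding clamp and lagging strand, nucleotide supply, chromatin assembly and entry into S phase. A gene counted as measured where the annotation of the array gave a row exactly 1 symbol, and among several such rows of a gene the highest-mean row was used. By that rule 45 of the 46 were measured, among 30141 genes in all. Mcm7 was the exception, since its row also carried the symbols of the microRNA genes Mir93 and Mir25, which lie within it. Each of the 45 had a single row, and all 45 lay above the level of the median gene.

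RNA came from leukaemia cells that carry the MLL-AF9 fusion oncogene, grew in recipient mice, were taken from bone marrow at end-stage disease and were sorted by flow cytometry. Both groups carry MLL-AF9. The 3 Control AML arrays are labelled as littermate control and the 3 Dnmt3b-KO AML arrays as Dnmt3b knockout. The sorting markers, the deleted exons, the Cre or other means of deletion, and the age and sex of the mice are not stated in the labels. Nothing in the labels ties each array to its own mouse. The p-values therefore measure only how far these samples spread, which may be technical. All values are log2 levels as deposited, and all differences are in the same log2 units, not converted to folds, because the scale reaches 19.59 and so passes the 16 that a 16-bit scanner can give. Values of a gene are listed in the order of replicates 1, 2 and 3 of each group.

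Dnmt3b-KO replicate 3 stood apart from the other 5 arrays. Its correlation with them across genes was 0.981 to 0.982, whereas the 5 correlated with each other at 0.998 to 0.999. Dnmt3b itself measured 6.76, 6.83 and 6.78 in control and 6.47, 6.63 and 5.96 in Dnmt3b-KO. All 3 knockout arrays lay below the controls, as for 8.21% of all genes, with replicate 3 the lowest. The difference was -0.44 over 6 arrays (limma, adjusted p = 0.78) and -0.24 without replicate 3 (adjusted p = 0.16), and passed in neither. Replicate 3 also carried RNA of the Y-linked gene Eif2s3y at 8.26, where no other array passed 4.54. The X-linked gene Xist stayed high on it, at 15.44 against 16.66 to 16.79 on the other arrays. The source of these RNAs was not tested. On this array all 14 of 14 monocyte and macrophage markers were above every other array, as were 33.9% of all genes. The median level of these markers was 12.51 against 5.16 to 5.34 elsewhere. Gpnmb, a glycoprotein of macrophages, reached 16.16 against at most 5.55, while C1qa and Mertk stayed at 4.84 and 5.10. Leukaemia markers were present on all arrays, but 6 of the 8 measured were lower on replicate 3 than on replicates 1 and 2, among them Kit at 9.71 against 11.40 and 11.42. The other 2 were higher on it: Itgam at 15.41 against 13.95 and 13.88, and Ptprc at 13.92 against 13.07 and 12.99. Of 15070 genes above the median level, 9604 were lower on replicate 3 than the mean of replicates 1 and 2. Each result is therefore given over all 6 arrays, over the 5 arrays without Dnmt3b-KO replicate 3, and for replicate 3 alone.

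Replication begins in G1 phase, when the origin recognition complex, Cdc6 and Cdt1 load the Mcm helicase onto DNA. At the start of S phase, kinases add Cdc45 and the GINS complex to the helicase, polymerase alpha with primase lays down primers, and polymerases delta and epsilon extend them with the PCNA clamp. Many of these genes are transcribed together at the G1/S border under E2F transcription factors, and their RNA levels are widely used as a sign of how many cells of a sample are cycling, including in leukaemia.

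No replication gene passed the test between Dnmt3b-KO and control. Over 6 arrays, 0 of 45 were called by limma at an adjusted p under 0.05, where 0% of all genes were called, and the smallest adjusted p was 0.79. At an unadjusted p under 0.05, 0 of 45 passed, against 6.37% of all genes and 1394 of the 15070 above the median level. Most differences had the same sign: 43 of the 45 were below 0 and 2, Pcna and Ccne1, above it. By comparison, 15439 of all 30141 genes and 9112 of the 15070 above the median level were below 0. The median of the 45 was -0.21 and their range -0.66 to 0.06, beside medians of 0.00 over all genes and -0.05 over genes above the median level. Without Dnmt3b-KO replicate 3 the median of the 45 was -0.05, with a range of -0.34 to 0.17 and with 27 genes below 0 and 18 above. Here 16197 of all 30141 genes and 7720 of the 15070 above the median level were below 0. Over these 5 arrays again 0 of 45 were called, against 1.69% of all genes. Of the 15070 above the median level, 275 were called higher and 216 lower. An unadjusted p under 0.05 was found for 3 of 45 (Orc2, Gins3 and Tyms), against 15.5% of all genes and 3653 of those 15070.

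**Figure D1:**
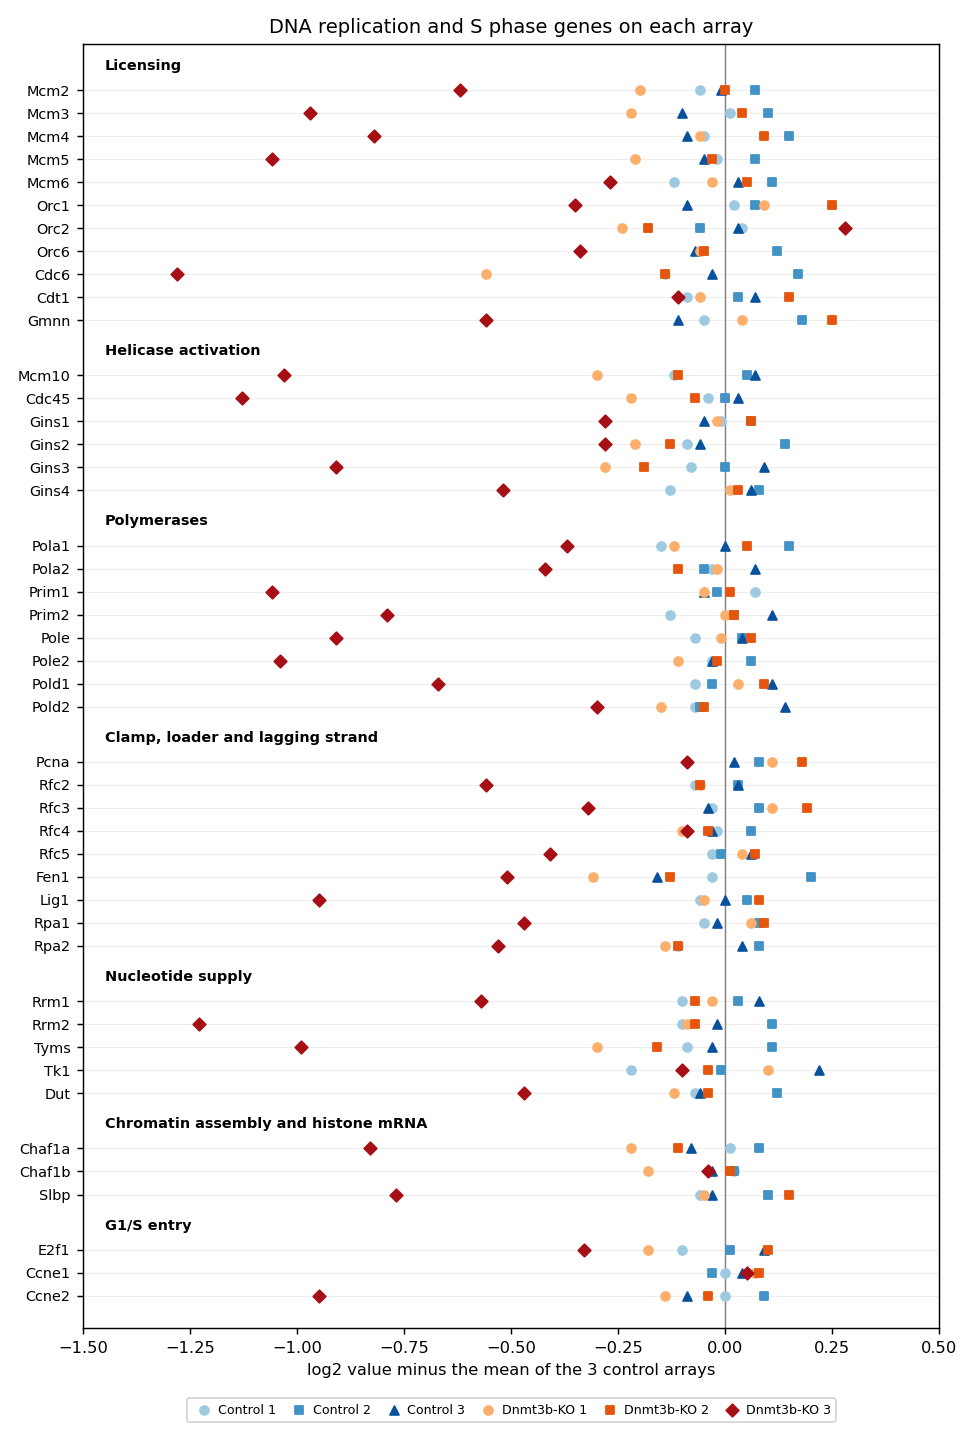
Each of the 45 measured genes on each array, as its log2 value minus the mean of the 3 control arrays, with genes grouped by role and 1 symbol per array (blue for control, orange for Dnmt3b-KO replicates 1 and 2, dark red diamonds for replicate 3). The diamonds lie left of every other symbol for 39 of the 45 genes, while the other 5 arrays overlap for most.

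Few of the genes had groups that did not overlap. All 3 Dnmt3b-KO values lay below all 3 controls for 6 of 45 genes (Cdc45, Gins2, Gins3, Rfc4, Tyms and Chaf1a), against 8.21% of all genes, and above them for 1, Ccne1, against 6.68%. Of the 15070 genes above the median level, 1749 lay below and 1089 above. With replicate 3 left out, both remaining values lay below the controls for 7 of 45, those 6 and Orc2, against 17.4% of all genes. They lay above the controls for 4 of 45 (Orc1, Pcna, Rfc3 and Ccne1), against 15.1%. Of the 15070 genes above the median level, 3033 then lay below and 3173 above.

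Dnmt3b-KO replicate 3 was lower than the other knockout arrays for nearly all of these genes. Set against the mean of replicates 1 and 2, its difference had a median of -0.52 over the 45 genes, from -1.15 for Rrm2 to 0.49 for Orc2, and 43 of the 45 were lower on it. The same median was 0.02 over all genes and -0.15 over genes above the median level. Lower on replicate 3 were 14005 of all 30141 genes and 9604 of the 15070 above the median level. Replicate 3 was lower by more than 0.5 for 25 of 45 genes, against 11.9% of all genes and 23.3% of genes above the median level. It was lower by more than 1 for 2 of 45, Rrm2 and Prim1, against 2.94% and 5.85%. It was the lowest of the 6 arrays for 39 of 45, against 31.3% of all genes and 51.5% of those above the median level, and the highest for 1, Orc2, against 33.9% of all genes. The same 31.3% and 51.5% apply to every later count of genes at their lowest on replicate 3. This is 1 array, so these are descriptions with no test. The macrophage markers above moved the other way on the same array, higher than replicates 1 and 2 by a median of 4.40. Their part in these values was not tested. In bulk RNA, fewer cycling cells and less of each RNA per cell cannot be told apart.

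**Figure D2:**
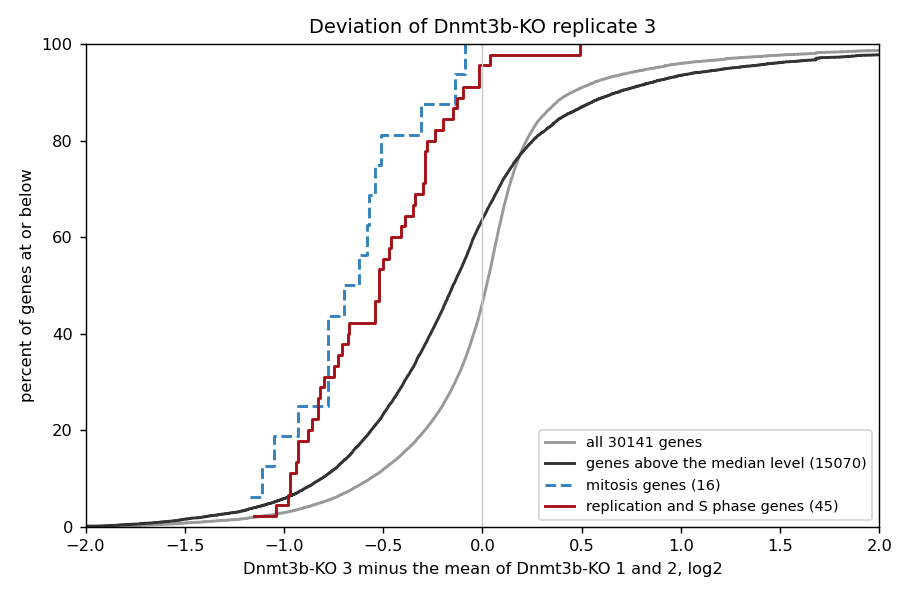
Cumulative percent of genes (vertical axis) at or below each log2 difference of Dnmt3b-KO replicate 3 from the mean of replicates 1 and 2 (horizontal axis, drawn from -2 to 2). The line of the 45 replication genes has its median at -0.52, left of the medians of all genes (0.02) and of genes above the median level (-0.15), and crosses those lines in the lower tail, where 2 of 45 lie below -1 against 2.94% and 5.85%. The 16 mitosis genes lie further left, at -0.66.

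The remaining arrays differed little among themselves. The median deviation of the 45 genes from the control mean was -0.06, 0.07 and -0.01 on the control arrays and, in the same order of replicates, -0.06, 0.00 and -0.54 on the Dnmt3b-KO arrays. Control replicate 2 was the highest control for 30 of the 45. Dnmt3b-KO replicate 1 was below replicate 2 for 42 of the 45, although by a median of only -0.08, where 15652 of all 30141 genes had that order.

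E2F-like letters stood in many of the promoters. RefSeq promoter windows of assembly GRCm38.p6, from 250 bases before to 50 after the transcript start, were given for 37 of the 46 genes. They were searched on both strands for the 4 spellings TTTGGCGC, TTTCCCGC, TTTCGCGC and TTTGCCGC of the E2F consensus, which can overlap on opposite strands. At least 1 match was found for 13 of the 37 genes (35.1%), against 2.6% of all 27025 genes and 2.26% of all 32851 windows of the table, and 4.91% of genes above the median level on the arrays. The CCAAT box of NF-Y, on either strand, was found for 22 of the 37 (59.5%), against 41.1% of all genes. Among 78 genes of the related lists described below, the shares were 26.9% for E2F and 61.5% for the CCAAT box. A match is a description of the letters and not a measured binding site. Stretches of up to 60 bases from the windows of 6 genes of the licensing, helicase, polymerase and clamp loader steps are shown, to let the shared letters be seen beside unlike differences of replicate 3. Each runs 5′ to 3′ on the strand of the gene and lies before the start, and capitals mark a match or, in Mcm5, 2 overlapping matches. The window of Mcm6 holds 3 matches before the start, of which 1 is shown.
Cdc6, chr11:98907987-98908046, plus strand: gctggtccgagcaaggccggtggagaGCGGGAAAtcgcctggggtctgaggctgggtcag
Mcm5, chr8:75109334-75109393, plus strand: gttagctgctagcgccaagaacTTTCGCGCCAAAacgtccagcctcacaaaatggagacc
Mcm6, chr1:128359719-128359778, minus strand: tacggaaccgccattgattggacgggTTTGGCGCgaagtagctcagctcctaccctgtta
Gins3, chr8:95633492-95633551, plus strand: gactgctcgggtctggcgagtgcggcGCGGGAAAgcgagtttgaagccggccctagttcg
Pola1, chrX:93632260-93632319, minus strand: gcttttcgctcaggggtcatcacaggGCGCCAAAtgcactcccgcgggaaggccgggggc
Rfc3, chr5:151651209-151651244, minus strand: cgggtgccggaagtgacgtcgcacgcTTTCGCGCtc
GCGGGAAA and GCGCCAAA are the same spellings read from the other strand. On Dnmt3b-KO replicate 3 the genes shown differed from replicates 1 and 2 by -0.93 (Cdc6), -0.94 (Mcm5), -0.28 (Mcm6), -0.68 (Gins3), -0.34 (Pola1) and -0.47 (Rfc3). Over all measured genes with a window, the median of this difference was -0.70 for the 12 with an E2F match and -0.40 for the 24 without. Their ranges of -0.97 to -0.15 and -1.15 to 0.49 overlap. For the CCAAT box the median was -0.52 for the 21 with a match and -0.35 for the 15 without. Those ranges, -1.15 to 0.49 and -0.97 to 0.04, overlap too.

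Among the licensing genes, Cdc6 had the greatest difference between groups, and Orc2 alone was higher on Dnmt3b-KO replicate 3 than on replicates 1 and 2. Cdc6, the ATPase that loads the helicase with Cdt1, measured 10.73, 11.04 and 10.84 in control and 10.31, 10.73 and 9.59 in Dnmt3b-KO. Here replicates 1 and 3 were below every control, and replicate 2 was level with the lowest control. The difference over 6 arrays was -0.66 ± 0.29 (SE), the greatest of the 45 genes, and it did not pass (limma, adjusted p = 0.82). Over 5 arrays it was -0.34 ± 0.15 (adjusted p = 0.34), with a 95% interval of -0.70 to 0.01. Orc2, a subunit of the origin recognition complex, measured 10.91, 10.81 and 10.90 in control and 10.63, 10.69 and 11.15 in Dnmt3b-KO. Here replicates 1 and 2 were below all controls, and replicate 3 was above all other arrays, against the direction of the rest of the group. The difference was -0.22 ± 0.06 over 5 arrays (adjusted p = 0.16) and -0.05 ± 0.15 over 6 (adjusted p = 0.94).

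The Mcm2-7 proteins form the ring of the helicase. Mcm5 measured 14.03, 14.12 and 14.00 in control and 13.84, 14.02 and 12.99 in Dnmt3b-KO. Here replicate 1 lay below the controls, replicate 2 among them and replicate 3 furthest below. Its difference over 5 arrays was -0.12 ± 0.08, with an interval of -0.31 to 0.06. Mcm6 measured 14.42, 14.65 and 14.57 in control and 14.51, 14.59 and 14.27 in Dnmt3b-KO, so that replicates 1 and 2 lay inside the control range. Among the other ring subunits, replicate 3 was lower than replicates 1 and 2 by -0.52 for Mcm2, -0.88 for Mcm3 and -0.83 for Mcm4. The 5-array differences of these 3 were -0.10, -0.10 and 0.01. Of the remaining licensing genes, Orc1, the largest subunit of the origin complex, differed by 0.17 ± 0.08 over 5 arrays, and Gmnn, the inhibitor of Cdt1, by 0.14 ± 0.11. Orc6 and Cdt1 differed by -0.05 and 0.04. Replicate 3 was below all other arrays for 10 of the 11 measured licensing genes, with Orc2 the exception, although Cdt1 at 9.12 lay just under the lowest control at 9.14.

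Helicase activation genes had the most negative median of any role over 5 arrays, -0.15. Both remaining knockout values lay below all controls for 3 of the 6, where 17.4% of all genes and 3033 of the 15070 above the median level had that order. Gins3, a subunit of the GINS complex, measured 8.29, 8.37 and 8.46 in control and 8.09, 8.18 and 7.46 in Dnmt3b-KO. Every knockout value was below every control, and the difference was -0.24 ± 0.07 over 5 arrays (limma, adjusted p = 0.19) and -0.46 ± 0.20 over 6 (adjusted p = 0.81). Cdc45, the helicase cofactor that joins at firing, measured 13.10, 13.14 and 13.17 in control and 12.92, 13.07 and 12.01 in Dnmt3b-KO. Its groups did not overlap either, but replicate 2 was only just under the lowest control, and the 5-array difference of -0.14 ± 0.07 did not pass (adjusted p = 0.38). Mcm10, which helps to start unwinding, measured 9.75, 9.92 and 9.94 in control and 9.57, 9.76 and 8.84 in Dnmt3b-KO, where replicate 2 lay inside the control range. Its 5-array difference was -0.20 ± 0.09 (adjusted p = 0.37). Gins2 differed by -0.17 ± 0.09, whereas Gins1 and Gins4 differed by 0.02 and 0.01. On replicate 3, all 6 were the lowest of the 6 arrays, with a median difference of -0.61 from replicates 1 and 2.

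**Figure D3:**
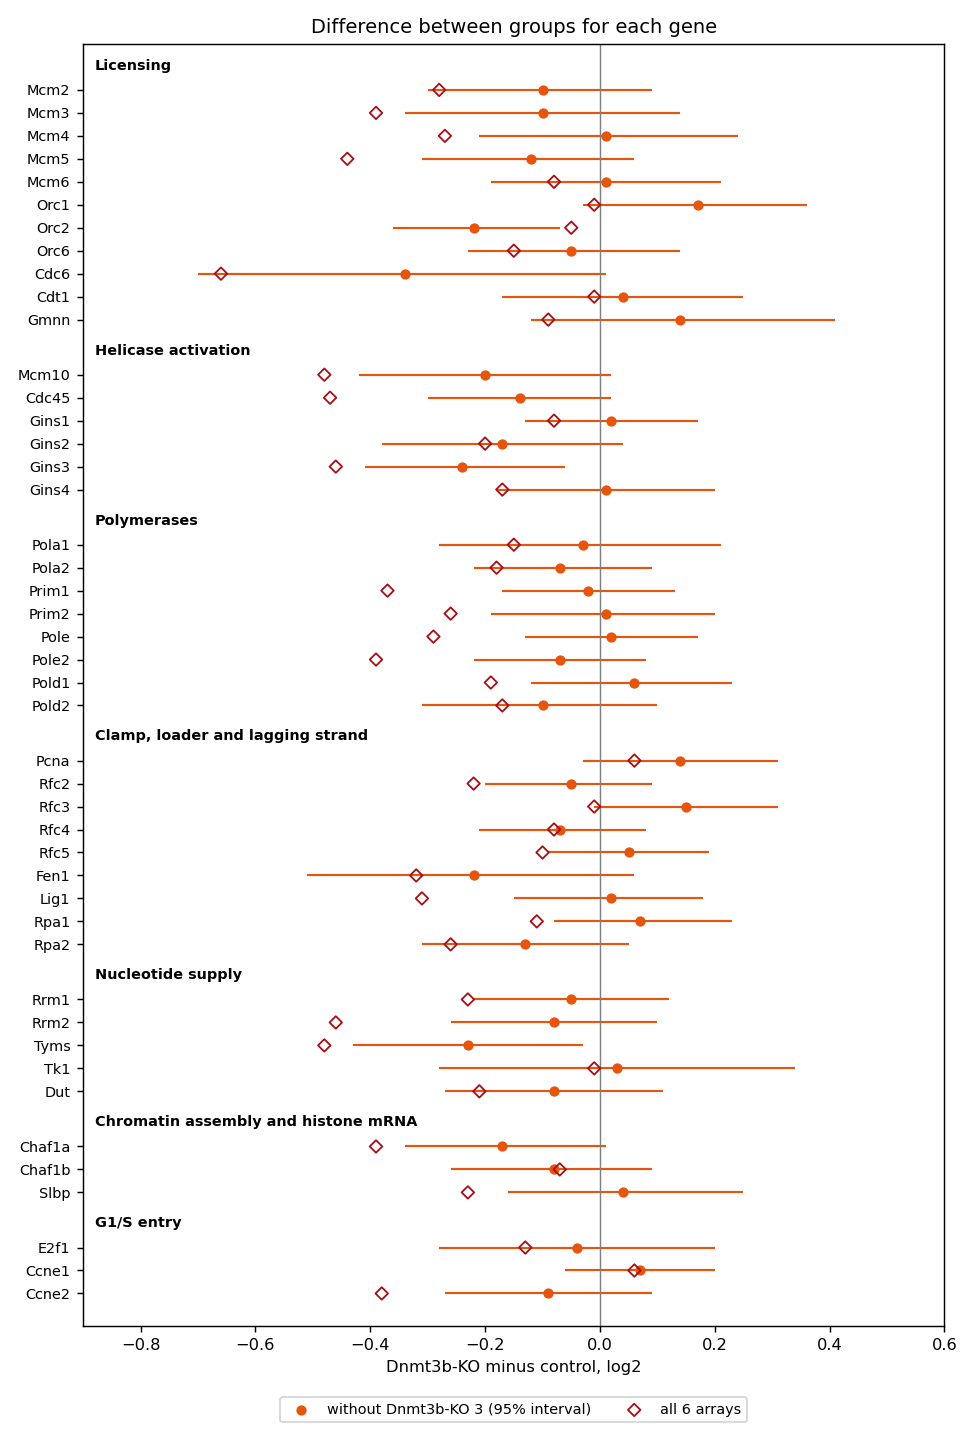
Difference of Dnmt3b-KO from control for each of the 45 genes in log2 units, grouped by role: filled circles with 95% intervals are the limma estimates without Dnmt3b-KO replicate 3, and open diamonds are those over all 6 arrays. The 5-array intervals cross 0 for all but Orc2, Gins3 and Tyms, and these intervals are not adjusted for the number of genes.

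Polymerase genes gave a near-zero difference over 5 arrays and the most negative role median on replicate 3. Over 5 arrays the 8 genes ran from -0.10 to 0.06, with a median of -0.03, and no gene had its groups apart. On replicate 3 their median difference from replicates 1 and 2 was -0.76, and all 8 were at their lowest. Prim1, the catalytic subunit of primase, measured 11.54, 11.45 and 11.42 in control and 11.42, 11.48 and 10.41 in Dnmt3b-KO. The first 5 values lay close together, while replicate 3 was lower than replicates 1 and 2 by -1.04. Pole2, a subunit of polymerase epsilon on the leading strand, measured 11.15, 11.24 and 11.15 in control and 11.07, 11.16 and 10.14 in Dnmt3b-KO, with the same shape. Prim2, the large primase subunit, measured 13.80, 13.95 and 14.04 in control and 13.93, 13.95 and 13.14 in Dnmt3b-KO. Pold2, a subunit of polymerase delta on the lagging strand, measured 11.16, 11.17 and 11.37 in control and 11.08, 11.18 and 10.93 in Dnmt3b-KO, the smallest shift of replicate 3 in this role at -0.20. The 95% intervals over 5 arrays were -0.17 to 0.13 for Prim1, -0.22 to 0.08 for Pole2, -0.19 to 0.20 for Prim2 and -0.31 to 0.10 for Pold2. The other 4, Pola1, Pola2, Pole and Pold1, differed by -0.07 to 0.06 over 5 arrays and by -0.93 (Pole) to -0.34 (Pola1) on replicate 3.

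Clamp and lagging strand genes had a median of 0.02 over 5 arrays and of -0.46 on replicate 3 against replicates 1 and 2. Pcna, the sliding clamp, measured 13.76, 13.93 and 13.87 in control and 13.96, 14.03 and 13.76 in Dnmt3b-KO. Here replicates 1 and 2 were above all controls and replicate 3 was at the level of the lowest control, so the difference was 0.14 ± 0.07 over 5 arrays (limma, adjusted p = 0.42) and 0.06 ± 0.09 over 6 (adjusted p = 0.88). Rfc3, a subunit of the clamp loader, measured 7.82, 7.93 and 7.81 in control and 7.96, 8.04 and 7.53 in Dnmt3b-KO. It too had replicates 1 and 2 above the controls, by 0.15 ± 0.07 over 5 arrays (adjusted p = 0.35), but replicate 3 below them. Lig1, the ligase that joins lagging strand fragments, measured 11.32, 11.43 and 11.38 in control and 11.33, 11.46 and 10.43 in Dnmt3b-KO. Replicate 1 lay inside the control range and replicate 2 just above it, while replicate 3 was lower than replicates 1 and 2 by -0.97. Rpa1, the large subunit of the single-strand binding protein, measured 10.27, 10.40 and 10.30 in control and 10.38, 10.41 and 9.85 in Dnmt3b-KO, with an interval of -0.08 to 0.23 over 5 arrays. The clamp loader subunits Rfc2, Rfc4 and Rfc5 differed by -0.05, -0.07 and 0.05 over 5 arrays. Fen1, the flap nuclease, differed by -0.22 ± 0.12 and Rpa2 by -0.13 ± 0.07. Replicate 3 was the lowest array for 7 of the 9, and the exceptions were Pcna and Rfc4.

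Nucleotide supply genes were led by Tyms and, on replicate 3, by Rrm2. Tyms, the enzyme that makes thymidylate, measured 10.70, 10.90 and 10.76 in control and 10.49, 10.63 and 9.80 in Dnmt3b-KO. Each knockout value was below each control, with a difference of -0.23 ± 0.08 over 5 arrays (limma, adjusted p = 0.26) and -0.48 ± 0.22 over 6 (adjusted p = 0.82). Rrm2, the small subunit of ribonucleotide reductase, measured 12.51, 12.72 and 12.59 in control and 12.52, 12.54 and 11.38 in Dnmt3b-KO. Here replicates 1 and 2 lay inside the control range, and replicate 3 was lower than them by -1.15, the greatest such shift of the 45. Rrm1, the large subunit, measured 14.75, 14.88 and 14.93 in control and 14.82, 14.78 and 14.28 in Dnmt3b-KO, a shift of -0.52. Dut, which removes dUTP, measured 9.36, 9.55 and 9.37 in control and 9.31, 9.39 and 8.96 in Dnmt3b-KO, where replicate 2 lay between the controls. Tk1, the thymidine kinase of the salvage pathway, was at 8.79 on replicate 3, inside the control range of 8.67 to 9.11, and differed by 0.03 ± 0.13 over 5 arrays.

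The 3 chromatin assembly genes did not share a pattern. Chaf1a, the large subunit of the CAF-1 histone chaperone, measured 10.36, 10.43 and 10.27 in control and 10.13, 10.24 and 9.52 in Dnmt3b-KO, with no overlap. Its difference was -0.17 ± 0.07 over 5 arrays (limma, adjusted p = 0.35) and -0.39 ± 0.20 over 6 (adjusted p = 0.82). Chaf1b, its partner in CAF-1, measured 8.55, 8.55 and 8.50 in control and 8.35, 8.54 and 8.49 in Dnmt3b-KO, so replicate 3 was no lower than the mean of replicates 1 and 2. Slbp, which binds the stem-loop of histone mRNA, measured 8.90, 9.06 and 8.93 in control and 8.91, 9.11 and 8.19 in Dnmt3b-KO, with replicate 1 inside the control range, replicate 2 just above it and replicate 3 below it.

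Among the entry genes, the cyclin E pair had differences of opposite sign, and neither passed. Ccne1 measured 7.51, 7.48 and 7.55 in control and 7.58, 7.59 and 7.56 in Dnmt3b-KO, with every knockout value just above every control, by 0.07 ± 0.05 over 5 arrays (limma, adjusted p = 0.64). Ccne2, the other E cyclin that activates Cdk2, measured 9.99, 10.08 and 9.90 in control and 9.85, 9.95 and 9.04 in Dnmt3b-KO, a shift of -0.86 on replicate 3. Its difference over 5 arrays was -0.09 ± 0.07 (limma, adjusted p = 0.67), with replicate 2 inside the control range. E2f1, the activating E2F factor, measured 8.42, 8.53 and 8.61 in control and 8.34, 8.62 and 8.19 in Dnmt3b-KO, so that replicates 1 and 2 lay on either side of the controls.

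**Figure D4:**
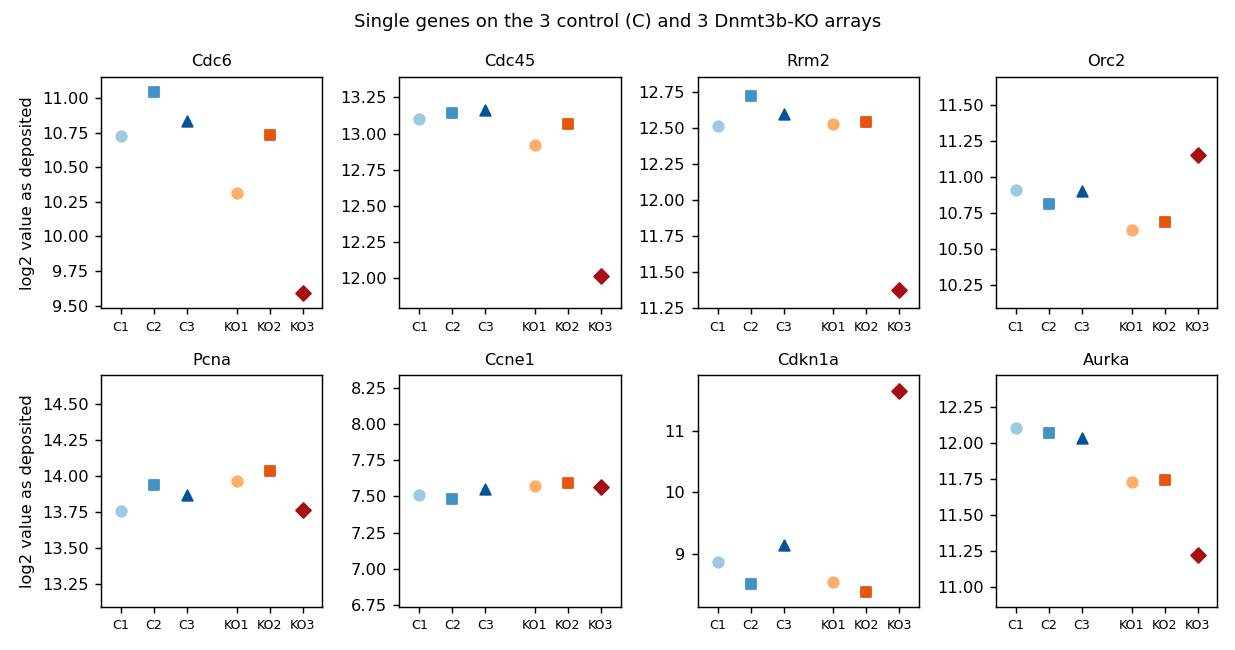
Deposited log2 values (vertical axes, each panel with its own range) of 6 members and of Cdkn1a and Aurka, which are not members, on the 3 control (C) and 3 Dnmt3b-KO arrays. Cdc6, Cdc45 and Rrm2 are lowest on Dnmt3b-KO replicate 3, Orc2 and Cdkn1a are highest there, and Pcna and Ccne1 stay close together over all arrays.

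Other genes of the same pathways were described from 5 further lists. Over 6 arrays 0 of their 85 measured genes were called. Over 5 arrays 1 of the 85 was, against 1.69% of all genes: Aurka, a mitotic kinase, among 16 mitosis genes. Aurka measured 12.10, 12.07 and 12.03 in control and 11.73, 11.74 and 11.23 in Dnmt3b-KO. It fell by 0.33 ± 0.05 (limma, adjusted p = 0.047), and the adjusted p ran from 0.0268 to 0.259 over the alternatives. With any single array left out it was 0.0992 to 0.259, so the call rests on all 5 arrays. None of the other mitosis genes passed, and their list had a median of 0.02 over 5 arrays.

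The 32 other origin and fork genes had a median of 0.00 over 5 arrays, and Pold4, the small subunit of polymerase delta, had the smallest adjusted p there, 0.077, at 0.29. On replicate 3 their median difference was -0.60. There 26 of the 32 were at their lowest, against 31.3% of all genes and 51.5% of genes above the median level. Ticrr, which helps to add Cdc45, went furthest at -1.26. The 13 other nucleotide supply genes had medians of -0.09 over 5 arrays and -0.28 on replicate 3. Among them Samhd1, which breaks down deoxynucleotides, was higher on replicate 3 by 0.89, and Mthfd1, an enzyme of folate metabolism, had the smallest adjusted p over 5 arrays, 0.12, at -0.37. The 9 other chromatin genes had medians of -0.09 and -0.61, and all 9 were lowest on replicate 3, with Asf1a, a histone chaperone, furthest at -0.86. Cdca7, a partner of the remodeller Hells, had the smallest adjusted p over 5 arrays, 0.14, at -0.34.

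Regulators of the G1/S border ranged furthest on replicate 3, from -1.63 to 3.20. Cdkn1a, which encodes the cyclin-dependent kinase inhibitor p21, measured 8.87, 8.51 and 9.14 in control and 8.53, 8.38 and 11.66 in Dnmt3b-KO, so that replicate 3 was higher than replicates 1 and 2 by 3.20. E2f8, an E2F repressor whose own level follows the cycle, measured 13.78, 13.62 and 13.82 in control and 13.63, 13.79 and 12.08 in Dnmt3b-KO, lower by -1.63 on replicate 3. Cdkn1b, the inhibitor p27, differed by 0.30 over 5 arrays, with an adjusted p of 0.062 that did not pass. The 15 genes of this list had medians of -0.03 over 5 arrays and -0.26 on replicate 3. Mitosis genes had a median of -0.66 on replicate 3, with 14 of 16 at their lowest, and Nusap1, a spindle protein, went furthest at -1.17.

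**Figure D5:**
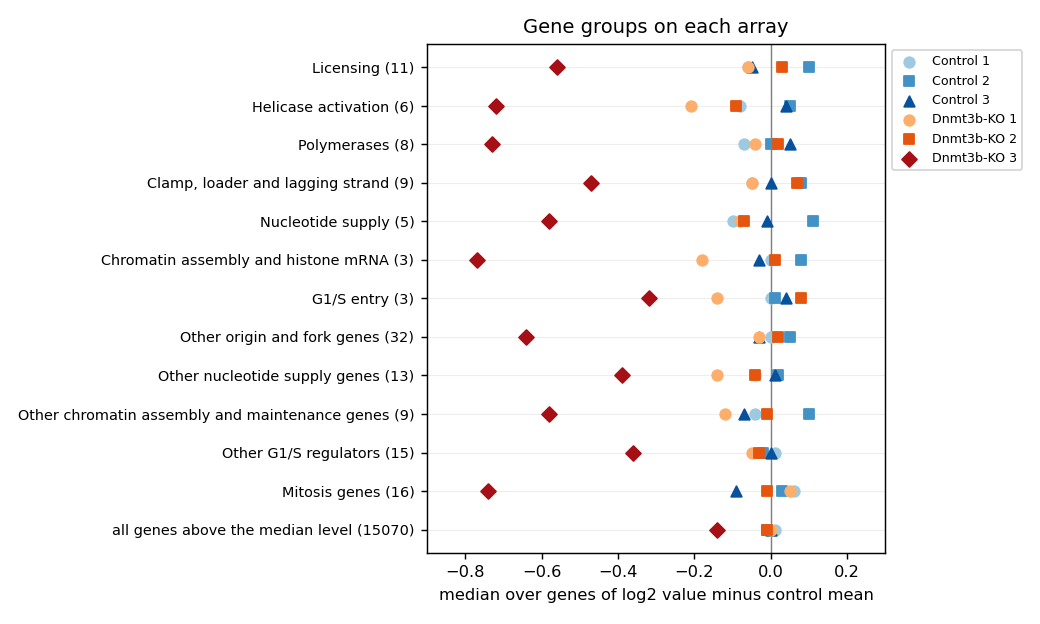
Median over the genes of each group of the log2 value minus the control mean, on each array, with the number of measured genes in brackets and 1 symbol per array. Dnmt3b-KO replicate 3 is the lowest array in every row, from -0.14 for all genes above the median level to -0.77 for the 3 chromatin assembly and histone mRNA genes, and the other 5 arrays lie between -0.21 and 0.11.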

How the data were processed

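The authors deposited log2 expression values, 1 per row and array, normalized by RMA (no version named), per the submitters' processing notes. The genome build of the array rows was not stated either, so no gene coordinates are printed beyond the promoter windows. Of 72688 rows, 6732 were array controls, and 30604 had exactly 1 symbol, which left 30141 genes. 813 symbols were brought up to date through gene identifiers. The test was lmFit and eBayes of limma 3.58.1 (R 4.3.3), with Benjamini-Hochberg adjusted p over all genes and calls under 0.05, run once over 6 arrays and once over 5. The fits were tested on simulated data. Members with values on every array are, in each role, those called, the 2 with the smallest p over 5 arrays, the 2 furthest apart on Dnmt3b-KO replicate 3 and the member with the highest mean. Members, lists, the 5-array comparison and this rule were chosen with earlier results of these data known. Alternatives were a variance trend, array weights, a replicate block, quantile normalization, centring, a level filter, the mean of rows, identical rows counted once, no empirical Bayes, other thresholds and each array left out. The number of arrays limits the precision. Figures were drawn with matplotlib 3.10.9.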

Additional observations from a re-analysis of the deposited data

How the results depend on the processing

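The count of replication genes called was 0 in every alternative run over 6 and over 5 arrays, except that 2, Orc2 and Gins3, passed an adjusted p under 0.25 over 5 arrays (limma). The 6-array median of -0.21 became -0.06 with array weights, where Dnmt3b-KO replicate 3 counted 0.112 and the other arrays 1.26 to 2.17, and ran from -0.30 to -0.05 with each array left out. The 5-array median of -0.05 moved by less than the control spread of 0.07 in all alternatives run, from -0.08 (without control replicate 1) to 0.00 (without Dnmt3b-KO replicate 1). The median shift of replicate 3, -0.52, became -0.43 when quantile normalization was repeated. Centring each array on the median gene gave -0.61. Centring on genes above the median level, a choice made after seeing the data, gave -0.44. In that order, 20, 28 and 19 replication genes were lower by more than 0.5, against 25 as deposited. The background moved too. The share of all genes lower by that much was 10.9%, 14.9% and 9.5%, against 11.9% as deposited. Among genes above the median level it was 21%, 28.9% and 18.8%, against 23.3%. The median shift of those genes was -0.12, -0.24 and -0.06, against -0.15.

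Replicate numbers are shared by the groups, but the labels give no pairing, so the numbers were not taken as pairs. Deviations of same-numbered arrays from their group means correlated at 0.126, 0.0332 and 0.108, and 5 of 6 arrays matched their own number best. The Dnmt3b-KO means include replicate 3, so these correlations do not settle whether the arrays are paired. With a replicate block the medians were -0.21 over 6 arrays and -0.03 over 5, and 0 replication genes were called in both; over 5 arrays 96 of all genes were called, against 509, and Aurka lost its call.

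Signs turned for some single genes, none of them called. Over 6 arrays, array weights gave Mcm6 0.02, Rfc3 0.15, Lig1 0.01, Rpa1 0.07 and Slbp 0.05, and quantile normalization gave Mcm6 0.01 and Rfc3 0.01. Over 5 arrays the replicate block gave E2f1 0.01. With each array left out over 6 arrays, ranges that crossed 0 were -0.22 to 0.04 for Orc2, -0.15 to 0.01 for Mcm6, -0.40 to 0.01 for Prim2, -0.10 to 0.15 for Rfc3, -0.50 to 0.02 for Lig1, -0.20 to 0.07 for Rpa1 and -0.42 to 0.04 for Slbp. Over 5 arrays they were -0.06 to 0.06 for Mcm6, -0.05 to 0.02 for Prim1, -0.06 to 0.06 for Prim2, -0.05 to 0.09 for Lig1, -0.18 to 0.01 for Chaf1b, -0.06 to 0.14 for Slbp and -0.17 to 0.10 for E2f1. The cause of these changes of sign was not tested.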
